A study of Mus musculus with 4 samples.

Results

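The genes described here are the nuclear genes of oxidative phosphorylation, taken as every gene whose symbol starts with Nduf, Uqcr, Cox4, Cox5, Cox6, Cox7, Cox8, Sdh or Atp5, with the single matching pseudogene symbol (-ps) left out. The rule gave 97 of the 32285 genes in the count tables. By name, 46 belong to complex I, 8 to complex II, 8 to complex III, 18 to complex IV and 17 to ATP synthase, and 12 of the 97 are assembly factors rather than subunits. Ndufa4 is counted with complex I because of its symbol, although its protein has since been placed in complex IV. The rule used names alone and no measured value.

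Oxidative phosphorylation is carried out in the inner mitochondrial membrane. Complex I (NADH dehydrogenase) and complex II (succinate dehydrogenase) pass electrons to ubiquinone, complex III passes them on to cytochrome c, and complex IV (cytochrome c oxidase) passes them to oxygen. The proton gradient that complexes I, III and IV build is used by ATP synthase to make ATP. Most subunits are encoded in the nucleus and a few in the mitochondrial genome, so each complex except complex II is built from both. In T cells this machinery supports naive and memory cells, and it is built up together with glycolysis when a cell is activated.

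Single cell RNA-seq had been performed on CD8+ PD-1+ CD44+ T cells sorted from the tumor-draining lymph node (TdLN) of mice bearing B16F10GP tumors, a mouse melanoma line that expresses a viral glycoprotein. There were 4 groups: untreated mice (Control), and mice 7 days after radiation therapy alone (RT), antibody to PD-L1 alone (αPD-L1) or both (RT + αPD-L1). All groups carried tumors. Each group was 1 library that pooled 5 mice marked with hashtag antibodies, so the mouse was the replicate, while library and treatment cannot be told apart. RT, αPD-L1 and RT + αPD-L1 were each set against the same Control mice. Of 43971 barcodes that passed the filters, 39192 carried a single hashtag, and 37649 remained after 1543 cells resembling B cells, gamma delta T cells or dendritic cells were left out. The mice held from 135 cells and 1156486 UMIs (RT mouse 4) to 4648 cells and 37968871 UMIs (RT + αPD-L1 mouse 3). Pairs of libraries shared 135 to 196 cell barcodes, against 143 to 186 for independent draws. In the cells compared, 6 CD8 T cell markers summed to between 4061 and 4892 CPM (counts of UMIs per 1000000 UMIs) in every mouse, while 4 melanoma markers summed to at most 1.3 CPM with 1 of the 4 at 0. The summed markers of gamma delta T cells (6.07 to 19.2 CPM), dendritic cells (86.4 to 122 CPM), B cells (172 to 231 CPM) and CD4 T cells (8.66 to 21.5 CPM) overlapped between the Control and RT + αPD-L1 mice.

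The 97 genes made up between 2.378% and 2.454% of all UMIs in the means of the 4 groups. In Control mice they summed to 24535 ± 255 CPM (SD, n = 5), the highest of these means. CPM scales the UMIs (RNA molecules) of a gene to the total UMIs of that mouse. It was not divided by gene length, so orders between genes below are orders of counted molecules. On this scale ATP synthase (8695.8 ± 139.6 CPM in Control) and complex I (7123 ± 51.8) gave the most molecules, followed by complex IV (5808 ± 56.2), complex III (2262 ± 13.4) and complex II (646 ± 17.1). The member with the highest mean CPM over the 20 mice was Ndufa4 in complex I (533 CPM), Sdhb, the iron-sulfur subunit of complex II (214 CPM), Uqcrh, the hinge protein of complex III (744 CPM), Cox4i1 in complex IV (992 CPM) and Atp5e, the epsilon subunit of ATP synthase (897 CPM). At 50 CPM or more there were 78 of the 97 genes.

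Where a subunit has several isoforms, the cells held nearly only the form found in most tissues. Cox4i1 was at 992 CPM and Cox4i2, known from lung, at 0.175 CPM, with 35 UMIs in all cells. Cox6a1 was at 349 CPM against 0.259 CPM for Cox6a2, the heart and muscle form, and Cox6b1 at 448 CPM against 2.27 CPM for Cox6b2, the testis form. Of the Cox7a group, Cox7a2 was at 304 CPM and Cox7a2l at 353 CPM, while the muscle form Cox7a1 was at 0.948 CPM. Cox8a was at 959 CPM, and Cox8b and Cox8c had 1 UMI each. Ndufa4 was at 533 CPM, whereas Ndufa4l2, known as a gene induced by hypoxia, had 0 UMIs, as did Cox7b2. Of 299757549 UMIs, 0 counts allow a level of up to 0.01 CPM (3 counts, counting error only). Among these isoform sets, the c-ring of ATP synthase drew on several genes at once, with Atp5g1 at 306 CPM, Atp5g2 at 887 CPM and Atp5g3 at 872 CPM. Those 3 genes encode the same mature c subunit behind different import sequences. How reads were split between such similar genes, or shared with processed pseudogenes, rests on the authors' counting and could not be examined in the counts.

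The level of the genes was next described by cell state. Cells were clustered without the 97 genes and without mitochondrially encoded genes, and clusters were named from markers where enough of them led the cluster and otherwise by their leading genes. The 10 resulting states of CD8 T cells were naive-like, effector-like, chronically stimulated-like, G2/M cycling-like and T_STEM-2-like (led by interferon-stimulated genes such as Ifit3, Rsad2 and Isg15), and 5 named by their leading genes: H2-Oa-Gm14085, Srm-Xcl1, Hdac9-Tubb2b, Klra7-Klra6 and Gm26917-Kcnq1ot1. The G2/M cycling-like cluster (4181 cells) also held the highest levels of the S phase markers searched, such as Hist1h2ae, Rrm2 and Pcna, so it mixes both phases. Clustering at a finer resolution gave a G2/M cycling-like cluster of 1889 cells and an S phase-like cluster of 2032 cells. It also gave a cluster of 366 cells led by Gzma and Gzmb, with 3 of the G2/M markers among its leading genes. By the naming rule this cluster was T_STEM-2-like too, as were 2846 cells led by Ifit3b and Rsad2 and 1612 cells led by Tgtp1 and Gbp10. The name rests on a marker list without Tcf7, and how far these cells match the paper's T_STEM-2 subset was not tested. Which finer clusters the 4181 cells entered was not followed. Srm encodes spermidine synthase and Xcl1 a chemokine of activated CD8 T cells, and Tnfrsf9, an activation receptor, also led the Srm-Xcl1 cluster. The naive-like state was the largest (7055 cells), although the sort was for PD-1+ CD44+ cells. Its RNA levels of Pdcd1, the gene of PD-1 (3.42 CPM), and Cd44 (11.2 CPM) were the lowest of the clusters. By the paper's methods, naive CD8 T cells (CD44- CD62L+) of untreated mice were sorted as well, to serve as controls. The mean naive-like share was lowest in Control mice (16.01%) and highest in αPD-L1 mice (24.96%). How the naive-like cells came into the libraries, and whether those separately sorted cells were among them, was not tested. Because clusters are drawn from the same cells, differences between states are given as descriptions, with no test. Each state was measured in every mouse with at least 20 cells of it.

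The nuclear genes were highest in Srm-Xcl1 cells, at 30679 ± 666 CPM (SD, n = 19 mice), and in G2/M cycling-like cells, at 28535 ± 583 CPM (n = 19). Chronically stimulated-like (24345 ± 799.6 CPM, n = 19) and effector-like cells (23727 ± 658 CPM, n = 19) came next, and these neighbors in the order overlapped. H2-Oa-Gm14085 (21711.5 ± 456 CPM, n = 20), T_STEM-2-like (21333 ± 713 CPM, n = 13), Klra7-Klra6 (20546 ± 798 CPM, n = 17), naive-like (20015 ± 436 CPM, n = 20) and Hdac9-Tubb2b cells (19982 ± 653 CPM, n = 17) lay close together, each overlapping its neighbors. The Gm26917-Kcnq1ot1 cells stood far below, at 6853.5 ± 678 CPM (n = 19). They were also shallow, with a median of 1706 UMIs per cell, were led by nuclear noncoding RNAs, and held 6.39% mitochondrial UMIs at the median cell. The part of depth and RNA quality in their low level was not tested, and orders between states below leave them out unless stated.

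**Figure D1:**
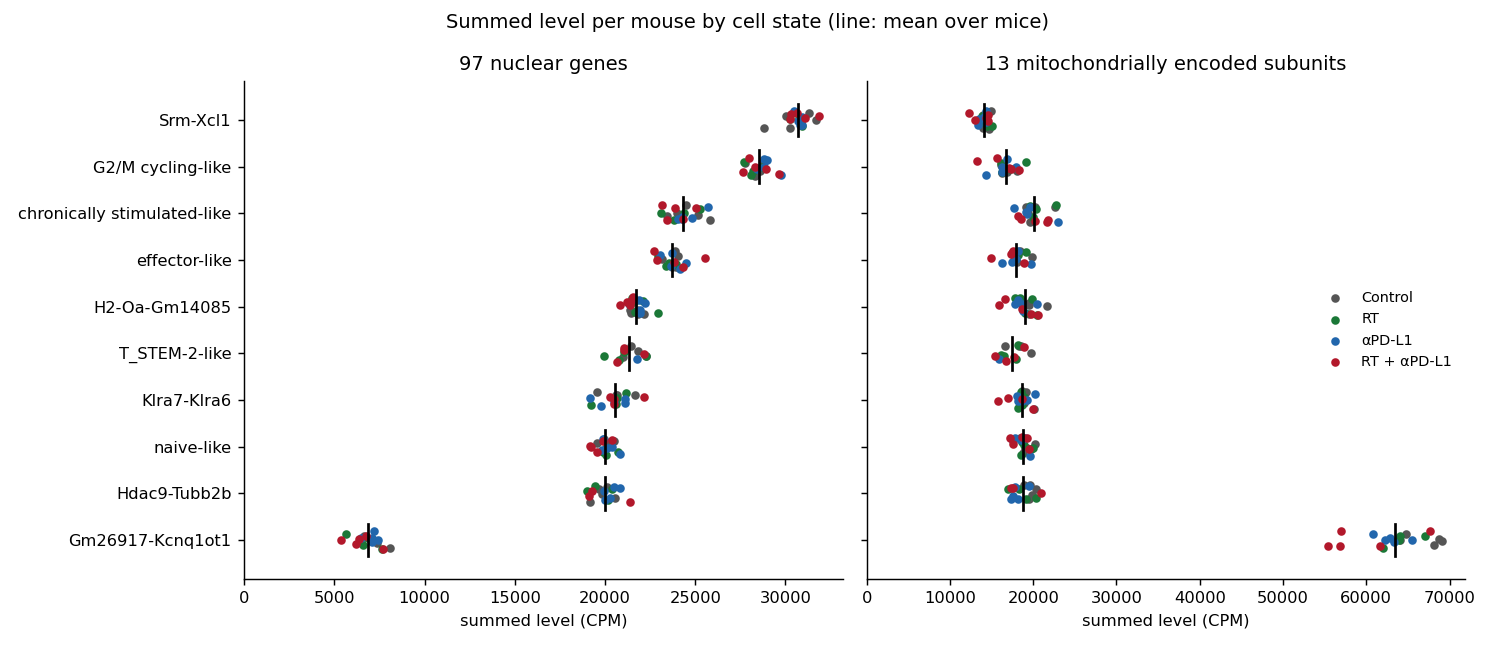
Summed CPM (linear axis from 0) of the 97 nuclear genes, left, and of the 13 mitochondrially encoded subunits, right, in each cell state. Each point is 1 mouse colored by treatment and the black line is the mean over mice. Srm-Xcl1 and G2/M cycling-like cells lie to the right of all other states for the nuclear genes and to the left of most for the mitochondrial ones, while Gm26917-Kcnq1ot1 cells show the opposite.

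Within the same mouse, Srm-Xcl1 cells exceeded naive-like cells in 19 of 19 mice, by a ratio of 1.54 (geometric mean, range 1.47 to 1.66). The ratio was 1.48 for complex I, 1.57 for complex II, 1.51 for complex III, 1.40 for complex IV and 1.68 for ATP synthase, each higher in 19 of 19 mice. G2/M cycling-like cells exceeded naive-like cells by 1.43, again in 19 of 19 mice, and there the ratio was 1.53 for complex IV and 1.21 for complex III. Set against cycling cells, Srm-Xcl1 cells had more complex III (1.25, 19 of 19 mice) and less complex IV (0.911, higher in 1 of 19 mice). Over the 2869 genes at 50 CPM or more, the median ratio of Srm-Xcl1 to naive-like cells was 1.06. T_STEM-2-like cells, the state with the most RT + αPD-L1 cells, differed little from naive-like cells, with a ratio of 1.06 (12 of 13 mice higher).

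In Srm-Xcl1 cells the mitochondrially encoded subunits went the other way. They were at 14067 ± 679 CPM in Srm-Xcl1 cells and 18804 ± 838 CPM in naive-like cells, a ratio of 0.75 with Srm-Xcl1 cells higher in 0 of 19 mice. Glycolytic genes had a ratio of 2.61 and cytosolic ribosomal protein genes one of 0.852 in the same cells. For the mitochondrially encoded subunits the ratio to naive-like cells was 0.888 in G2/M cycling-like cells (higher in 0 of 19 mice). It was 0.954 in effector-like (2 of 19) and 1.01 in H2-Oa-Gm14085 cells (12 of 20). In chronically stimulated-like cells it was 1.07 (18 of 19), the same direction as the nuclear genes (1.22). Cells of these states also differed in total RNA, with 12343 UMIs per Srm-Xcl1 cell, 15781 per G2/M cycling-like cell and 5177 per naive-like cell. Counted per cell, the 97 genes gave 379 ± 27.3 UMIs in Srm-Xcl1 cells, 451 ± 33.9 in G2/M cycling-like cells, 104 ± 7.2 in naive-like cells and 14 ± 2.2 in Gm26917-Kcnq1ot1 cells. The part of depth in the ratios was not tested.

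Most single genes followed the sum. Of the 78 genes at 50 CPM or more, 45 were highest in Srm-Xcl1 cells, 25 in G2/M cycling-like cells, 4 in effector-like cells, 2 in H2-Oa-Gm14085 cells, 1 in chronically stimulated-like and 1 in naive-like cells. The lowest state was Hdac9-Tubb2b for 29 genes and naive-like for 21. With the shallow state included, 77 of the 78 were lowest there. Between Srm-Xcl1 and naive-like cells 73 of 78 had a ratio above 1 (median 1.63), compared with 54.0% of the 2869 genes of that level, and 67 were higher in all mice.

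**Figure D2:**
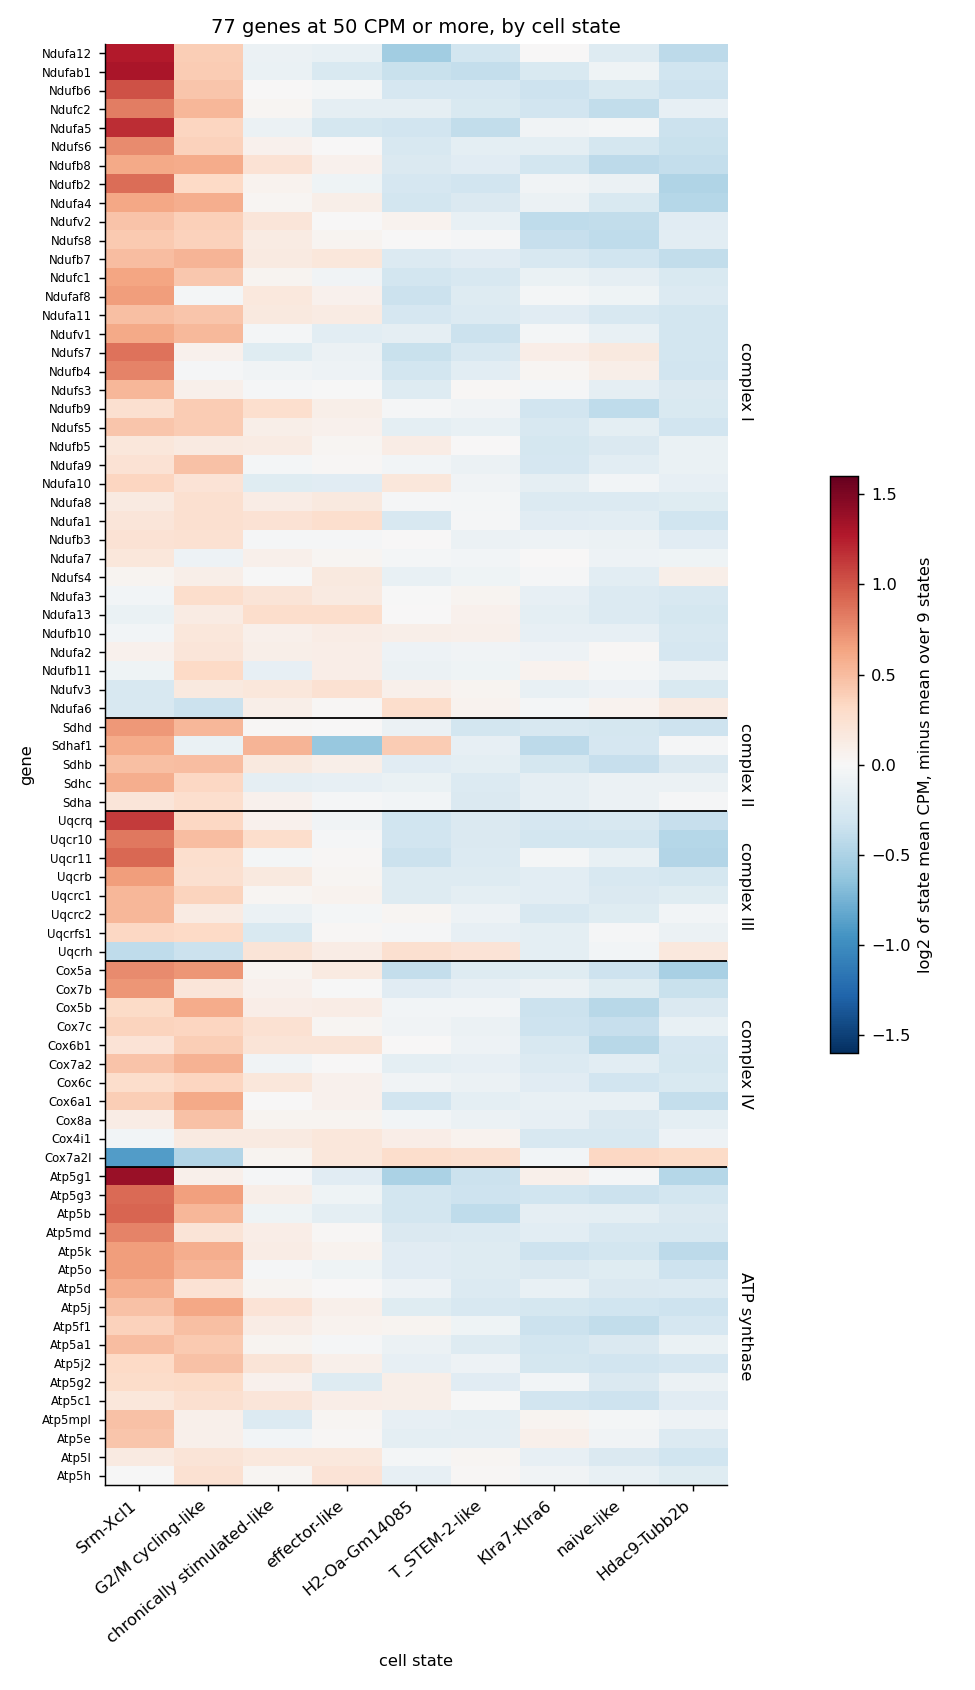
Level of 77 of the 78 genes at 50 CPM or more (rows, grouped by complex and ordered within it by the Srm-Xcl1 to naive-like ratio) in 9 cell states (columns), as log2 of the state mean CPM minus the gene's mean over those states. Red is above and blue below that mean. The Srm-Xcl1 and G2/M cycling-like columns are mostly red, with Cox7a2l, Uqcrh and Ndufa6 blue in both.

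Among members at 50 CPM or more, those that varied most and least between states were these. In complex I, Ndufa12, an accessory subunit of the catalytic arm, was at 250.2 ± 15.3 CPM in Srm-Xcl1 cells and 70.6 ± 6.93 CPM in H2-Oa-Gm14085 cells, a ratio of 3.54, and Ndufa7 varied least (ratio 1.2). In complex II the assembly factor Sdhaf1 differed by 2.29 and the flavoprotein Sdha by 1.41. In complex III Uqcrq, a small subunit, was at 571 ± 27.9 CPM in Srm-Xcl1 and 202 ± 29.9 CPM in Hdac9-Tubb2b cells, a ratio of 2.82, against 1.48 for the Rieske protein Uqcrfs1. In complex IV Cox5a differed by 2.43 and Cox4i1 by 1.36. With the shallow state included, and again at 50 CPM or more, the largest ratios in each complex were 10.2 for Ndufa12, 5.76 for Sdhaf1, 10.75 for Uqcrq, 7.75 for Cox7b and 10.4 for Atp5g1, and the smallest were 1.61 for Ndufs4, 1.41 for Sdha, 2.81 for Uqcrfs1, 3.31 for Cox7c and 2.11 for Atp5a1.

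In ATP synthase the widest range was that of Atp5g1, and its partners did not share it. Atp5g1 was at 715 ± 31.9 CPM in Srm-Xcl1 cells, 289 ± 18.2 CPM in G2/M cycling-like cells, 267 ± 13.2 CPM in naive-like cells and 192 ± 10.5 CPM in H2-Oa-Gm14085 cells, a ratio of 3.72 from highest to lowest. Atp5g3 ranged by 2.37 and Atp5g2 by 1.46, and Atp5h by 1.35. In G2/M cycling-like against naive-like cells, Atp5g3 had a ratio of 1.998 (19 of 19 mice higher) and Atp5g2 one of 1.45 (19 of 19), while Atp5g1 had one of 1.09 (16 of 19). So within 1 subunit, Srm-Xcl1 cells held more of all 3 genes than naive-like cells, whereas cycling cells held more of Atp5g2 and Atp5g3 with a smaller difference in Atp5g1.

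Cox7a2l, placed in complex IV by its symbol alone, was the clearest exception there. It was at 453 ± 23.3 CPM in naive-like cells, 261 ± 19.2 CPM in G2/M cycling-like cells and 193 ± 18.8 CPM in Srm-Xcl1 cells, and was lower in Srm-Xcl1 than in naive-like cells in all 19 mice (ratio 0.428). Uqcrh (ratio 0.777) and the complex I subunit Ndufa6 (ratio 0.8) were the other members that were lower in all mice, and the same 3 genes were the ones lower in all mice in G2/M cycling-like cells. Their ratios there were 0.577 for Cox7a2l, 0.811 for Uqcrh and 0.75 for Ndufa6.

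The promoters of the 3 c-ring genes are shown because these genes encode 1 subunit but differ across states. That of Cox7a2l is shown because it goes against most of the genes placed in complex IV by symbol. Each sequence runs 5′ to 3′ on the gene's strand, from 150 bases before to 30 bases after the RefSeq start (GRCm38.p6), in lower case with motif matches in capitals.
Atp5g1, chr11:96075602-96075781, minus strand: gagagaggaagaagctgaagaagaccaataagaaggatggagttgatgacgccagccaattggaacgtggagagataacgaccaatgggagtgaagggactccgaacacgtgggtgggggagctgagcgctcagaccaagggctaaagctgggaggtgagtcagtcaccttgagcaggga
Atp5g2, chr15:102671018-102671197, minus strand: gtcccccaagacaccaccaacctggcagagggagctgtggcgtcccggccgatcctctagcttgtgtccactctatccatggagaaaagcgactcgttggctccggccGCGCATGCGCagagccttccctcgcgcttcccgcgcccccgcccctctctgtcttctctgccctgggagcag
Atp5g3, chr2:73911297-73911476, minus strand: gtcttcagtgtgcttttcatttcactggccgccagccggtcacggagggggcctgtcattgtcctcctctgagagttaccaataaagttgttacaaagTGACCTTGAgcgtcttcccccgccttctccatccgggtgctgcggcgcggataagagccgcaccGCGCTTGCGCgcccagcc
Cox7a2l, chr17:83514304-83514483, minus strand: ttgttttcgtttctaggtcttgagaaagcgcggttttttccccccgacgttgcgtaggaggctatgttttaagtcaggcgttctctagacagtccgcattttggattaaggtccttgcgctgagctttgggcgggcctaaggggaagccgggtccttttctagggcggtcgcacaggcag
Atp5g2 and Atp5g3 each hold the core of nuclear respiratory factor 1 (NRF1; GCGCA, any base, then GCGC, on either strand), a factor known to drive many nuclear genes for mitochondria, and Atp5g3 also holds a site of the estrogen-related receptors (ERR, TCAAGGTCA). The windows of Atp5g1 and Cox7a2l hold no match to the 4 motifs searched. RefSeq windows of 300 bases were found for 79 of the 97 genes (84 windows). The NRF1 core was in 22 of them (26.2%, against 4.60% of all 32851 windows of that length), the ETS core bound by GABP (CCGGAAG) in 22 (26.2% against 8.86%), the YY1 core (AAGATGGCG) in 8 (9.52% against 1.40%) and the ERR site in 2 (2.38% against 0.423%), counting both strands. The median GC content was 58.5% in the members' windows and 52.7% in all windows. A match describes letters in a window and is no measurement of binding.

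The effect of treatment on the whole population of each mouse was examined next. The summed level of the 97 genes differed little between groups. It was 24748, 24846, 24279, 24494 and 24309.8 CPM in the Control mice and 23823, 23239.9, 24691, 23742 and 23417 CPM in the RT + αPD-L1 mice. RT + αPD-L1 mice therefore lay mostly below Control, with mouse 3 inside the Control range. The means were 24535 ± 255 CPM in Control, 24210.2 ± 364.5 CPM after RT, 24331 ± 800.1 CPM after αPD-L1 and 23783 ± 561 CPM after RT + αPD-L1 (SD, n = 5 each). Complex II was the one complex whose sums did not overlap between Control (626 to 663 CPM) and RT + αPD-L1 (573 to 615 CPM) or RT (586 to 623 CPM). These sums are described and not tested. A whole-population sum mixes cell states, so a change in the mix and a change within cells cannot be told apart in it. The share of Srm-Xcl1 cells was 9.61 ± 1.27% in Control and 6.98 ± 1.12% in RT + αPD-L1 mice (SD, n = 5 each), with overlap. For G2/M cycling-like cells it was 11.17 ± 0.9% and 9.94 ± 1.82%, and for T_STEM-2-like cells 2.97 ± 2.53% and 21.31 ± 18.35%. The part of these shares in the whole-population sums and calls was not tested.

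**Figure D3:**
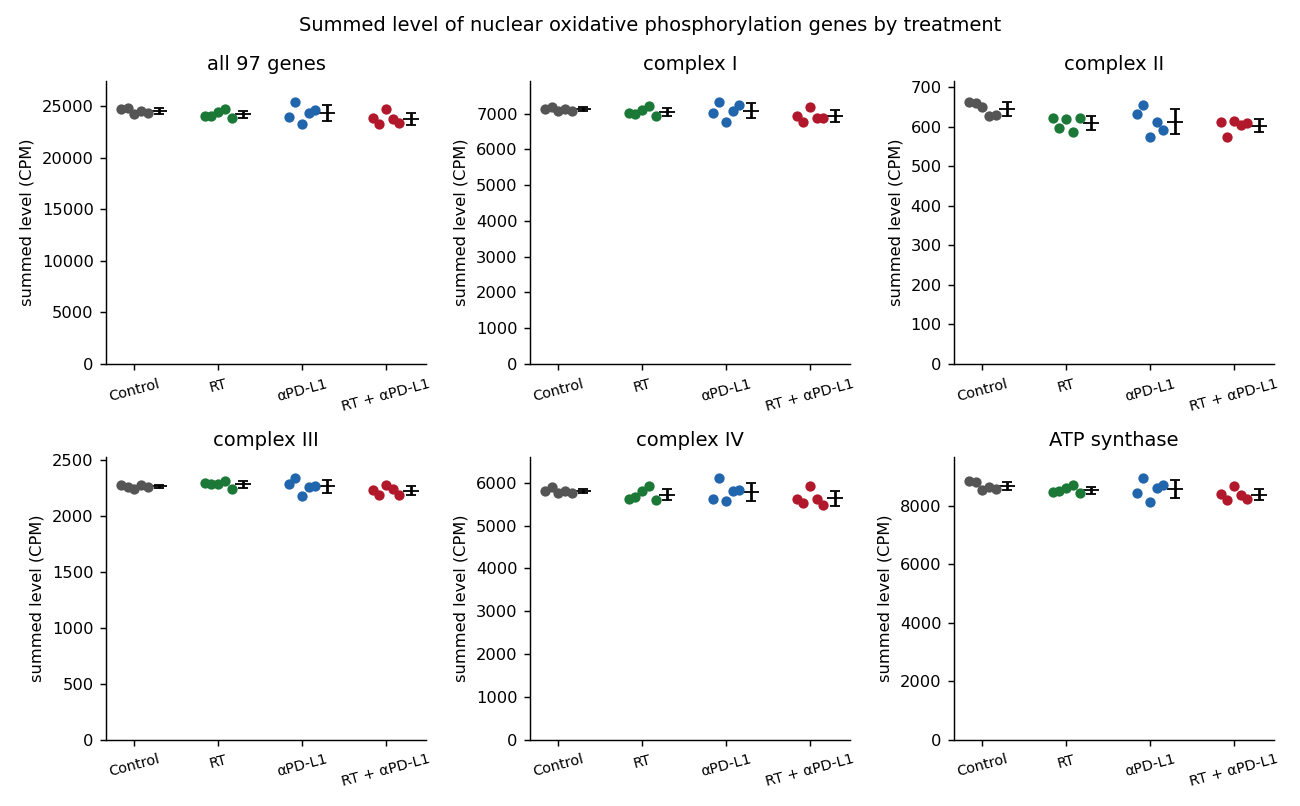
Summed CPM (linear axes from 0) of all 97 genes and of each complex by treatment. Each point is 1 mouse and the black bars are the mean and SD of 5 mice. The groups overlap in every panel except complex II, where the Control mice lie above the RT and the RT + αPD-L1 mice.

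Of the 97 genes, 91 passed the filter on low counts and were tested. The other 6 were Ndufa4l2, Cox7b2, Cox8b, Cox8c, Cox4i2 and Cox6a2. In RT + αPD-L1 compared with Control, 6 members were lower and 0 higher at an adjusted p under 0.05 (edgeR quasi-likelihood F test, Benjamini-Hochberg over 11976 genes). That is 6.59% of the 91, while 9.3% of all tested genes were called, and 3.06% were called as lower. At an unadjusted p under 0.05 there were 17 members (18.7%) against 23.4% of all genes. The median log2 fold change was -0.03 over the members and -0.00499 over all genes, and 62 of the 91 were negative (72 when scaled to library totals alone). By complex the median was -0.06 in complex II (5 of 8 negative), -0.04 in ATP synthase (13 of 17), -0.03 in complex I (31 of 45), -0.03 in complex IV (9 of 13) and -0.01 in complex III (4 of 8). The changes were small: 87 of 91 lay within 0.2 of 0 on the log2 scale, with a median SE of 0.04.

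In complex I, Ndufb6, an accessory subunit in the membrane arm (ENSMUSG00000071014, chr4:40270591-40279421, mm10), changed by -0.14 ± 0.04 (log2, SE), with an adjusted p of 0.0185 in edgeR's test. It was at 162, 158, 156, 153 and 160.5 CPM in Control and 144, 135, 148, 143 and 141 CPM after RT + αPD-L1, without overlap, while the single treatments (148 to 159 CPM and 142 to 162 CPM) overlapped Control.

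In complex II, Sdhc, a membrane anchor (ENSMUSG00000058076, chr1:171127165-171150603), changed by -0.15 ± 0.04 (adjusted p 0.0288). Its levels were 66.3, 62.5, 62.6, 68.6 and 62.4 CPM in Control and 58.5, 55.2, 55.9, 60.4 and 57.5 CPM after RT + αPD-L1. The RT mice (56.3 to 62.2 CPM) and the αPD-L1 mice (56.2 to 60.3 CPM) were also all below Control. Sdhaf1, which helps insert iron-sulfur clusters into complex II (ENSMUSG00000074211, chr7:30321406-30323895), had a log2 change of -0.34 ± 0.10 (adjusted p 0.0336). It varied more, with 66.7, 61.6, 63.6, 55.1 and 49.2 CPM in Control and 49.986, 39.1, 39.5, 51.9 and 56.3 CPM after RT + αPD-L1, so the groups overlapped. Sdhd, the other anchor, had a change of -0.15 ± 0.05 with an adjusted p of 0.054 and was not called by edgeR. It was called by limma-voom, with library totals alone, with other cell types kept, without cycling cells and without the 5% of cells with the most UMIs.

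In ATP synthase, the alpha and beta subunits of the catalytic head were called. Atp5a1 (ENSMUSG00000025428), the alpha subunit, changed by -0.17 ± 0.03 (adjusted p 0.00336), from 535, 527, 521, 532 and 507 CPM in Control to 474, 465, 456, 478 and 447 CPM after RT + αPD-L1. The lowest Control mouse was above every treated mouse except αPD-L1 mouse 2 (515 CPM). Atp5b (ENSMUSG00000025393, chr10:128083273-128090391), the beta subunit, changed by -0.11 ± 0.03 (adjusted p 0.0488), from 735, 737, 701, 729.7 and 709.6 CPM to 657, 636, 695, 672 and 662 CPM. These values did not overlap, but the adjusted p lay at the threshold. No member of complex III or IV was called. The largest change in complex III was that of the core protein Uqcrc1 (-0.10 ± 0.04, adjusted p 0.127), and in complex IV that of the rare isoform Cox6b2 (-0.38 ± 0.21, adjusted p 0.298, mean 2.27 CPM).

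**Figure D4:**
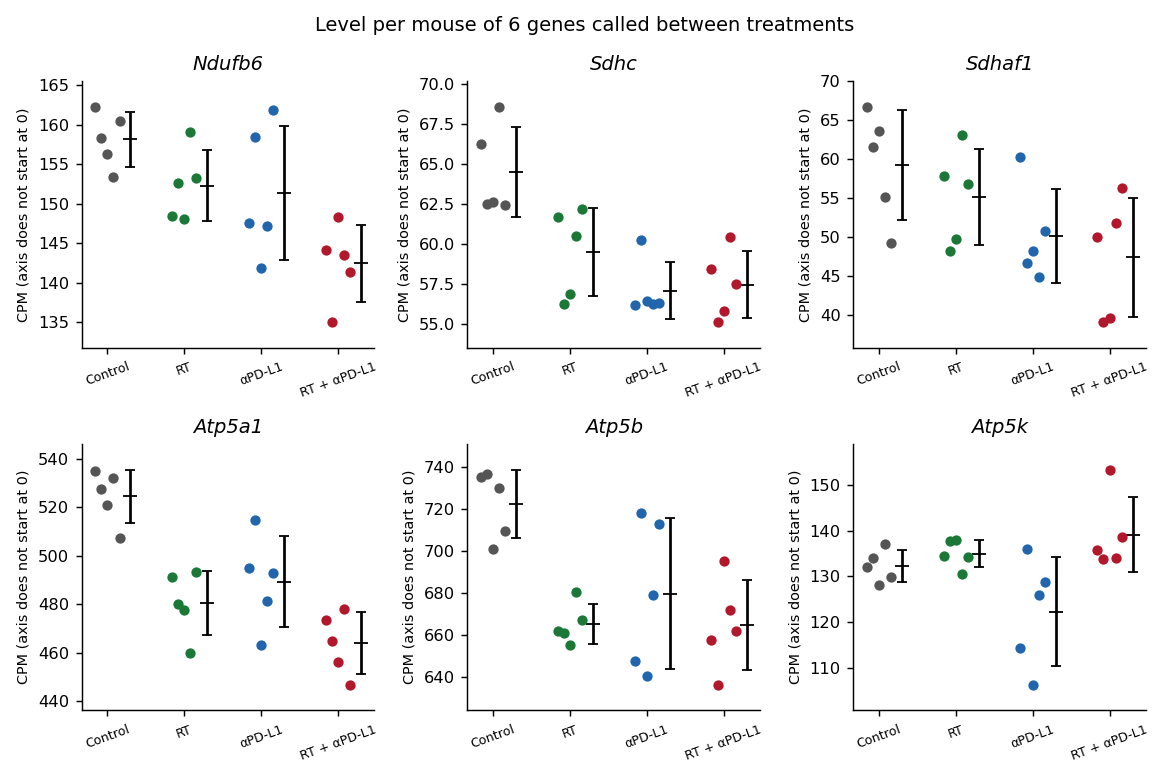
CPM per mouse of 6 members called between a pair of treatments (vertical axes do not start at 0). Points are mice and black bars are the mean and SD of 5 mice. For Ndufb6, Sdhc, Atp5a1 and Atp5b the RT + αPD-L1 mice lie below all Control mice, for Sdhaf1 they overlap, and Atp5k is lowest in αPD-L1 mice.

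These calls depended on how cells were assigned to mice and on single mice. With HTODemux, the assignment named in the study's methods, Atp5a1 was the 1 gene of the 6 that was called. Without Control mouse 1, and likewise without RT + αPD-L1 mouse 2, 3 of the 6 remained, and Atp5b, Sdhaf1 and Sdhc were lost.

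Neither single treatment moved a member past the threshold. In RT compared with Control 0 members were called by edgeR, where 0.0919% of all genes were called. At an unadjusted p under 0.05 there were 13 members (14.3%), against 9.92% of all genes. In αPD-L1 compared with Control 0 were called by edgeR, with 0.459% of all genes called, although DESeq2 and limma-voom each called 1 as lower there. At the unadjusted threshold there were 10 members (11%), against 14.3% of all genes. DESeq2 and limma-voom called 0 in RT. The genes called in RT + αPD-L1 had negative values in each. Atp5a1 was at -0.12 ± 0.03 after RT and -0.09 ± 0.03 after αPD-L1 (adjusted p 0.195 and 0.178 in edgeR), and Sdhc at -0.12 ± 0.04 and -0.16 ± 0.04 (0.342 and 0.0837). Since the comparisons share their Control mice, these values are not independent of each other.

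Read by mouse, the groups of some members did not overlap. After RT, 11 members (12.1%) were lower in all 5 treated than in all 5 Control mice, against 1.9% of all genes. Among them were Atp5a1, Atp5b, Atp5o, Ndufa11, Ndufb8, Ndufv1, Sdhc, Sdhd, Uqcrc1 and Cox4i1. In the other direction 1 member (Atp5mpl) was higher in all, against 1.54% of genes. After RT + αPD-L1, 9 (9.89%) were lower in all mice, against 2.76% of genes, and 0 higher, against 2.5%. Among these were Atp5a1, Atp5b, Atp5o, Ndufb6, Ndufv2, Sdhc, Sdhd and Cox4i1. After αPD-L1 there were 3 (3.3%, Ndufv1 and Sdhc among them), against 2.1% of genes, and 0 higher, against 1.85%. The members were mostly highly counted genes, and the part of level in these shares was not tested.

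**Figure D5:**
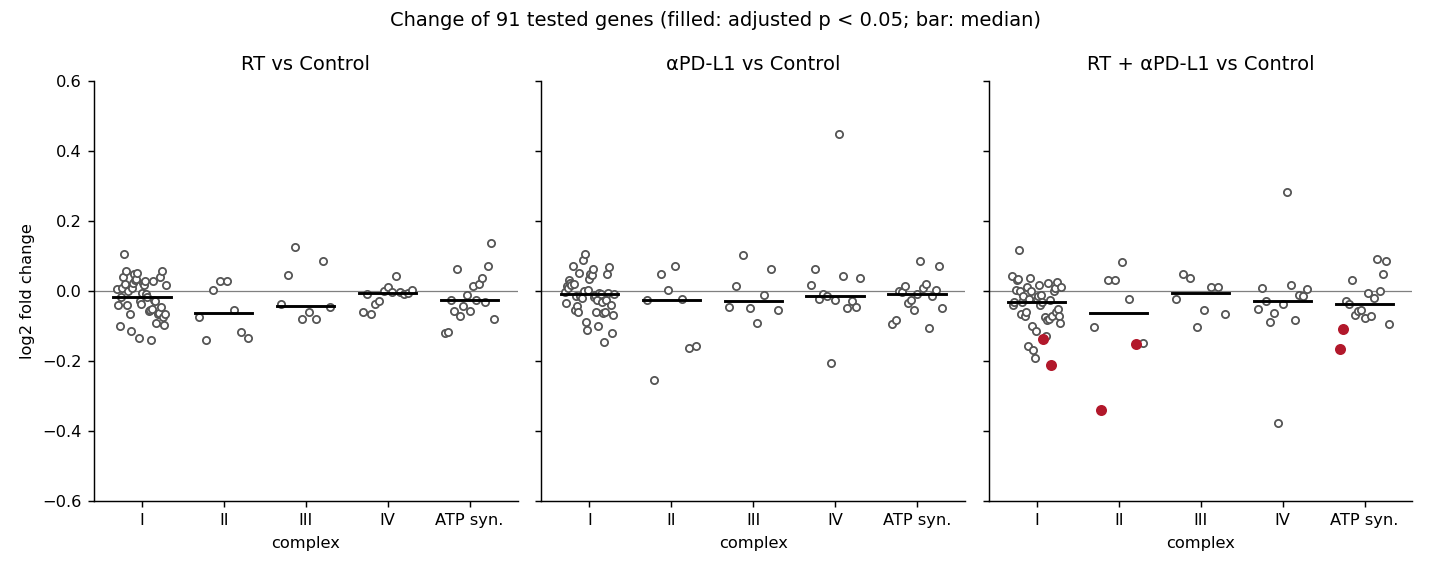
Log2 fold change of the 91 tested members against Control after RT, αPD-L1 and RT + αPD-L1, by complex. Each circle is 1 gene, filled red where the adjusted p was under 0.05, and the bar is the median of the complex. The medians lie between -0.06 and -0.01, and the 6 filled circles are all in RT + αPD-L1 and below 0.

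RT + αPD-L1 was then compared with each single treatment. Against RT, 0 members were called by edgeR (0 by DESeq2 and 1 by limma-voom), with 3.13% of all genes called. At an unadjusted p under 0.05 there were 4 members (4.4%), against 15.7% of all genes. Against αPD-L1 1 member was called, where 2.44% of all genes were called and 2.18% as higher. It was Atp5k, the e subunit in the membrane part of ATP synthase (ENSMUSG00000050856, chr5:108433244-108434448), which was 0.20 ± 0.05 higher (log2, adjusted p 0.0491). Its levels were 114, 136, 106, 126 and 129 CPM after αPD-L1 and 136, 134, 153, 134 and 139 CPM after RT + αPD-L1, against 128 to 137 CPM in Control. The groups overlapped, and RT + αPD-L1 mouse 3 stood highest. Without that mouse the change was 0.15 and not called (adjusted p 0.186), and the call held in 4 of 11 other settings and in 6 of 20 fits that left out 1 mouse. In the excess of RT + αPD-L1 over the sum of both single treatments, 0 members were called by edgeR, DESeq2 and limma-voom, with 0.927% of all genes called. At an unadjusted p under 0.05 there were 6 members in edgeR (6.59%), against 11.6% of all genes.

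To hold the cell state fixed, RT + αPD-L1 and Control were compared within each state that had at least 3 such mice in every group. T_STEM-2-like cells could not be fitted, because too few αPD-L1 mice held enough of them (2, 134, 17, 14 and 7 cells). In the mice with enough T_STEM-2-like cells, the nuclear genes summed to 21639.1 ± 550.3 CPM in Control (SD, n = 4). The sum was 21240.0 ± 655.5 CPM after RT + αPD-L1 (n = 4). The ranges overlapped, and the difference was not tested. The share of T_STEM-2-like cells ran from 0.65% to 45.5% of cells in RT + αPD-L1 mice and from 0.48% to 7.2% in Control mice. Within G2/M cycling-like cells 2 members were called, both lower, with 2.2% of all genes called. Sdha, the succinate-binding subunit of complex II, was at 143, 154, 154, 164 and 151 CPM in Control and 135, 123, 125, 136 and 124 CPM after RT + αPD-L1 (log2 change -0.26 ± 0.06, adjusted p 0.0227 in edgeR). Cox7a2l was at 283, 285, 282, 266 and 288.5 CPM in Control and 244, 249, 219, 262 and 249 CPM after RT + αPD-L1 (-0.21 ± 0.06, adjusted p 0.0473). Neither gene's groups overlapped. Without the filter on low counts Sdha was called (adjusted p 0.0461) and Cox7a2l was not (0.0641). The phases were not balanced in the finer G2/M cycling-like and S phase-like clusters. Of their cells, 49.3% to 50.9% were S phase-like in Control mice and 52.8% to 63.1% in RT + αPD-L1 mice, without overlap. These clusters held 507 and 519 Control cells, where the main cluster held 1003. For RT + αPD-L1 they held 298 and 477 cells, where the main cluster held 1017. The main cluster may therefore differ between the groups in more than phase, which was not tested. With the phases fitted apart, edgeR called 1 member in the G2/M cycling-like cells, Sdha (-0.39 ± 0.10, adjusted p 0.0325, with 1.47% of all genes called), and 0 in the S phase-like cells, with 1.7% of all genes called and 8 members at an unadjusted p under 0.05. There Sdha was at -0.15 ± 0.07 (adjusted p 0.402). Cox7a2l was at -0.19 ± 0.08 and -0.09 ± 0.06, and was called in neither (adjusted p 0.363 and 0.66).

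Within H2-Oa-Gm14085 cells 1 member was called, with 1.27% of all genes called, and it was again Cox7a2l. It was at 482, 459, 458.5, 462 and 458 CPM in Control and 428, 403, 419.6, 421 and 411 CPM after RT + αPD-L1 (-0.18 ± 0.04, adjusted p 0.0309), without overlap. The change of Cox7a2l was negative in 9 of the 9 states fitted, from -0.21 to -0.05. Among other members, Atp5o, Cox6a1 and Cox6b1 were also negative in 9 of 9 states, while Ndufa3 and Ndufab1 were negative in 0 of 9. In the whole population Cox7a2l changed by -0.08 and was not called (adjusted p 0.338 in edgeR). It was called there in 0 of 11 other settings and 0 of 20 fits that left out 1 mouse. Cells of different states come from the same mice, so the states are not independent repeats. In the other 7 states edgeR called 0 members, where it called 1.79% of all genes in naive-like, 0.213% in effector-like, 0.52% in chronically stimulated-like, 1.21% in Srm-Xcl1, 0.411% in Hdac9-Tubb2b, 1.84% in Klra7-Klra6 and 1.87% in Gm26917-Kcnq1ot1 cells. At an unadjusted p under 0.05 there were, in the same order, 9 (10.1%), 10 (11.2%), 8 (8.99%), 7 (7.87%), 6 (6.98%), 2 (2.38%) and 3 (4.29%) members, against 11%, 9.6%, 8.15%, 9.78%, 6.62%, 9.51% and 8.94% of all genes. In H2-Oa-Gm14085 cells there were 17 (19.1%, against 12.2%) and in G2/M cycling-like cells 10 (11.1%, against 14.3%). No other tool was run within states.

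None of the 6 members called in the whole population passed within a state. The nearest was Atp5a1 in H2-Oa-Gm14085 cells (-0.17 ± 0.05, adjusted p 0.0738) and in G2/M cycling-like cells (-0.14 ± 0.04, adjusted p 0.0913). Without the filter on low counts it was called in H2-Oa-Gm14085 cells (adjusted p 0.044). The states are subsets of the cells in which the 6 genes were called, so their signs there are a description and no further support. Ndufb6 and Atp5b were negative in 9 of 9 states, Atp5a1 in 8 of 9, and Sdhc and Sdhaf1 in the 8 states where they were tested. Fewer cells enter each of these fits, and the SE of Atp5a1 rose from 0.03 in the whole population to 0.04 in G2/M cycling-like and 0.05 in naive-like cells. The median log2 change over members was -0.08 in chronically stimulated-like, -0.06 in H2-Oa-Gm14085, -0.06 in Gm26917-Kcnq1ot1 and -0.05 in naive-like cells. It was -0.02 in effector-like, -0.00106 in G2/M cycling-like, -0.000262 in Srm-Xcl1, -6.21e-05 in Hdac9-Tubb2b and 0.02 in Klra7-Klra6 cells. Over all genes it lay between -0.00931 and 0.00105 in the 9 states.

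Related lists were read in the same comparison of RT + αPD-L1 with Control. Of the 13 mitochondrially encoded subunits edgeR called 0, with 8 at an unadjusted p under 0.05 and a median of -0.11. Their sum was 18927 ± 952 CPM in Control and 17987.5 ± 1567.5 CPM after RT + αPD-L1. Of 15 genes of the tricarboxylic acid cycle and of pyruvate dehydrogenase, which feeds it, 2 were lower. They were Suclg1, a subunit of succinyl-CoA ligase (-0.14 ± 0.04, adjusted p 0.0192), and Pdha1, of pyruvate dehydrogenase (-0.17 ± 0.05, adjusted p 0.0267). Of 16 assembly genes of complex IV 1 was higher (Cox18, which inserts a subunit into the membrane, 0.26 ± 0.08, adjusted p 0.0338). Of 78 genes of the mitochondrial ribosome 1 was higher and 1 lower, and of 79 genes of the cytosolic ribosome 4 were lower. No gene was called among 10 other chain components, 12 tested regulators of mitochondrial biogenesis and 17 tested glycolytic genes (2, 1 and 2 at an unadjusted p under 0.05). Of all genes, 9.3% were called, 3.06% were called as lower, and 23.4% had an unadjusted p under 0.05. The tricarboxylic acid cycle list (2 of 15 called) and the mitochondrially encoded subunits (8 of 13 at the unadjusted threshold) lay above those shares, in short lists. The cytosolic ribosome (4 of 79) also lay above the share called as lower, though below the share called. Complex IV assembly (4 of 16) lay just above the unadjusted share.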

How the data were processed

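The authors deposited 1 matrix of UMI counts per library, made with Cell Ranger 6.1.2 (per the file headers) on mm10 (per the submitters' processing notes), with 5 hashtags as further features. Barcodes with 500 to 5000 genes, at most 40000 UMIs and at most 10% mitochondrial UMIs were kept. Cells were given to mice by a boundary per hashtag at the emptiest bin between its background and positive modes, in place of HTODemux (Seurat 5.3.0), which took RT mouse 1 from 823 to 102 cells. Barcodes with several hashtags (8.23%) were left out as doublets, and doublets within a mouse could not be seen. Normalized cells were clustered with scanpy 1.11.5 and leidenalg 0.10.2 (2000 variable genes, 20 components, 15 neighbors, resolution 0.6).

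Counts were summed per mouse, and per mouse and state with at least 20 cells. All 20 mice entered 1 edgeR 4.0.16 quasi-likelihood fit with TMM factors (R 4.3.3), after a filter on low counts, and p-values were adjusted by Benjamini-Hochberg over all tested genes. Within states at least 3 mice per group were required. DESeq2 1.42.0 and limma 3.58.1 (voom) were alternatives. The code was tested on simulated data. Promoters came from RefSeq. P-values compare mice of single libraries.

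The genes and lists were chosen with earlier results of these data known. Named genes were those called, the highest and the most changed of each complex, the isoform sets, and the most and least variable across states. Sdhd, Ndufa6, Uqcrh across states, the genes named for groups without overlap, and the promoters shown were chosen after their values were seen. The values of 1 called gene are not reported here.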

Additional observations from a re-analysis of the deposited data

Results flagged for a closer look

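Of 160 sets of 5 mice examined (a gene or a sum in 1 group), 7 (4.38%) held 1 mouse whose gap to its nearest neighbor, relative to the range, exceeded Dixon's critical value of 0.71. Chance gives about 1 in 20. In 5 of the 7 it was RT + αPD-L1 mouse 3. Its Atp5k was at 153.4 CPM (133.9 to 138.5 CPM in the other 4 mice), its Cox5a at 447.8 CPM (384.6 to 397.5 CPM), its Cox6a1 at 366.6 CPM (315.7 to 330.3 CPM) and its Cox7a2 at 334.7 CPM (281.7 to 296.8 CPM), while its Cox7a2l was low, at 308.6 CPM (342.5 to 356.1 CPM). That mouse gave 4648 of the 9519 RT + αPD-L1 cells, and 45.5% of its cells were T_STEM-2-like. Their part in these levels was not tested. In RT + αPD-L1 mouse 2 the sum of complex II was low, at 573.3 CPM (606 to 615 CPM in the others), and in αPD-L1 mouse 2 Sdhc was high, at 60.3 CPM (56.2 to 56.5 CPM).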

How the results depend on the processing

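In RT + αPD-L1 compared with Control, where edgeR called 6 members, limma-voom called 11 (1 higher and 10 lower), the fit without a filter on low counts 3, HTODemux assignment 1 (Atp5a1) and the fit without cycling cells 10 (1 higher, Ndufa3, and 9 lower). Fits that left out 1 mouse called 3 to 7. Atp5a1 was called in 11 of 11 other settings, Sdhaf1 in 10, Ndufb6 in 9, Atp5b in 7 and Sdhc in 6. In αPD-L1 compared with Control, where 0 were called, DESeq2 called 1, limma-voom 1 and the fit without cycling cells 1 (Sdhd). With HTODemux the median change of the members there turned from -0.01 to 0.03. In RT + αPD-L1 compared with RT, limma-voom called 1 where edgeR called 0. In RT + αPD-L1 compared with αPD-L1 the single call, Atp5k, was lost (0 called) with RLE factors, with library totals, without the filter, with HTODemux, with other cell types kept, without mice under 200 cells, and without the shallow Gm26917-Kcnq1ot1 cells, an alternative chosen after seeing the data. Fits that left out 1 mouse called 0 to 1 there, and 0 to 1 for the excess (Uqcrb, lower, without RT + αPD-L1 mouse 3). Within states, the fit without the filter called 1 in G2/M cycling-like cells (2 with it, Cox7a2l lost) and 2 in H2-Oa-Gm14085 cells (1 with it, Atp5a1 gained). With the phases of the cycling cells fitted apart, also chosen after seeing the data, 1 was called in G2/M cycling-like and 0 in S phase-like cells. No called value reversed. The ratio of Srm-Xcl1 to naive-like cells, for the sum and for each complex, stayed within the spread between mice under each alternative run. Other ratios between states, and those of single genes, were not rerun under an alternative. The causes of these changes were not tested. No paired analysis was possible because the labels hold no replicate numbers and hashtag numbers do not link mice of different libraries. Depth limits the mice with few cells and the rarely counted isoforms.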
